A study of Mus musculus with 3 samples.

Results

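Sites of chromosome X at which mouse embryonic fibroblasts gave variant reads and no B6 read were taken from a sequencing of chromatin pulled down with an antibody to LSD1. The members were chosen by the allele reads of the fibroblast library itself: a member is a single-base site, listed at its position without a second entry, with 0 B6 reads and at least 5 variant reads there. There were 6938 such sites, 1.68% of the 411944 single-base sites of the fibroblast list and 21.9% of the 31723 sites with 5 or more reads by allele. The other 24785 of those sites had reads of both alleles and serve as the comparison. The series holds 3 groups of 1 library each. MidK cells were fibroblasts carrying the reprogramming vector SeVdp(fKOSMaB) and kept with 30 nM Shield1, taken at day 20. LowK cells carried the same vector and were taken at day 20 without Shield1. MEF, the fibroblasts themselves, were taken at day 0. SeVdp is a Sendai virus vector that stays in the cytoplasm, and Shield1 is a small ligand that protects proteins fused to a destabilising domain. The labels used here give neither the sex of the cells nor the strain that carries the variant base, and they do not say whether the 3 libraries come from the same fibroblast preparation. The reads hold no expression, so the labelled cell types were not checked against markers.

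LSD1, encoded by Kdm1a, removes methyl groups from histone tails and works with corepressor complexes at promoters and enhancers. A read that covers a base differing between parental chromosomes can be assigned to an allele, and in female cells with an inactive X chromosome such reads can tell the active from the inactive copy. A stretch in which a cell population carries the variant on every chromosome, a homozygous haplotype block, would give neighbouring sites with variant reads only, over long distances and in every library made from those cells. A site that carries both alleles can also give variant reads only when few reads cover it.

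The MidK, LowK and MEF lists held 203350, 295240 and 883058 reads by allele at 119257, 186841 and 411944 single-base sites, and 69.7%, 67.7% and 47.4% of these sites had a single read. Each listed site has at least 1 variant read, so a member that is missing from a list may have had no read there or only B6 reads. Sites with 1 read of each allele were also few in the lists. At 2 reads, 81.3% of listed sites in MidK, 92.9% in LowK and 98.5% in MEF had variant reads only. A missing member may therefore also have had both alleles read, and these cases cannot be told apart. With 1 library per group no difference has a replicate check and no p-value was computed. Intervals are exact 95% Clopper-Pearson intervals for counting error. Since neighbouring sites can be read from the same fragment, sites are not independent and the true intervals are wider.

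The promoter stretches below are shown because they hold members with at least 3 reads in a day-20 library and lie wholly before the annotated starts, a choice made after the values were seen. RefSeq promoter windows of GRCm38.p6, the build called mm10, run from 250 bases before to 50 bases after each transcript start. Members lay in 46 of the 1220 windows of chromosome X, 53 sites in all. The B6 base of the files matched the RefSeq base at 147 of the 147 sites with 5 or more MEF reads in these windows. Each stretch is 61 bases, read 5′ to 3′ on the strand of the gene, with the members in capitals. Positions count from 1 at its 5′ end, the B6 base is given first and the variant base last, and coordinates are of GRCm38.p6.
Slc35a2 (chrX:7884141-7884201, + strand): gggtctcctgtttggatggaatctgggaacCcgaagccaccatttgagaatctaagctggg
Flna (chrX:74246608-74246668, - strand): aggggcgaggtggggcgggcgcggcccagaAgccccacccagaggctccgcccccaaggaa
Tmem47 (chrX:81070463-81070523, + strand): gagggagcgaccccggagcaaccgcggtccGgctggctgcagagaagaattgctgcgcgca
Gk (chrX:85776944-85777004, - strand): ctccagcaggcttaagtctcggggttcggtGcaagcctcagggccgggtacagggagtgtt
Klhl15 (chrX:94234866-94234926, + strand): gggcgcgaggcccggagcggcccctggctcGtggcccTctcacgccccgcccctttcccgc
Cenpi (chrX:134307941-134308001, + strand): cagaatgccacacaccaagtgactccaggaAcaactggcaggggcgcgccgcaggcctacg
Fgd1 (chrX:151046994-151047054, + strand): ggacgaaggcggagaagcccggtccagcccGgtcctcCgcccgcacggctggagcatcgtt
Klf8 (chrX:153359519-153359579, + strand): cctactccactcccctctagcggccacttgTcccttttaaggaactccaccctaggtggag
Nhs (chrX:162159612-162159672, - strand): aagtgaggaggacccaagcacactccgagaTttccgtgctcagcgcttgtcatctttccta
Frmpd4 (chrX:168122977-168123037, - strand): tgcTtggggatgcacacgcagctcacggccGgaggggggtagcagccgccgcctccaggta

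At Klhl15, which encodes an adaptor of a ubiquitin ligase, the members G31C and T38C each had 3 B6 and 3 variant reads in MidK and 4 B6 and 3 variant reads in LowK. In MEF they had 7 and 5 variant reads and no B6 read. These members lie close together and had equal day-20 counts, so both may have been read from the same fragments. Both day-20 libraries thus read the B6 base at sites where the fibroblast library had not. At Klf8, a Krüppel-like transcription factor gene, T31C had 3 B6 and 5 variant reads in LowK, against 5 variant reads in MEF. At Slc35a2, the Golgi transporter gene for UDP-galactose, C31T had 2 B6 and 6 variant reads in LowK, against 5 variant reads in MEF. At Flna, the filamin A gene, A31G had 2 reads of each allele in LowK, against 5 variant reads in MEF. The members of Fgd1, the gene of an exchange factor for the small GTPase Cdc42, were G31C and C38T, and each had 1 variant read in MidK and 1 B6 and 4 variant reads in LowK, against 6 and 5 variant reads in MEF. The equal day-20 counts of this pair may likewise come from the same fragments. At Nhs, an actin-regulating gene, T31C had 1 B6 and 3 variant reads in LowK, against 5 variant reads in MEF. The B6 base was seen in LowK at 6 of the 10 stretches, of which Cenpi had only 2 LowK reads and Frmpd4 was not listed in LowK. Over the chromosome, counted by site, the B6 base was seen at 105 of the 192 members with 3 or more LowK reads.

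The remaining stretches kept to the variant base where they were read. Cenpi, a centromere protein gene, had 3 variant reads in MidK and 2 in LowK at A31G, with 6 in MEF. Frmpd4, which encodes a scaffold of the postsynaptic density, had 3 variant reads in MidK at G31T, with 6 in MEF, and its T4C had 7 in MEF and was listed in neither day-20 library. Gk, the glycerol kinase gene, had 4 variant reads in LowK at G31A, with 5 in MEF, and Tmem47, a gene of a membrane protein at cell junctions, had 3 at its G31A, with 6 in MEF. At these counts a B6 allele could have been missed.

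The depth at which the members stood was shallow. The median member had 5 variant reads, 4529 members (65.3%) had exactly 5, 1566 had 6, 559 had 7, 195 had 8 and 89 had 9 or more. Just outside the rule lay 12859 sites with 4 variant reads and no B6 read, and 1981 sites with 5 or more variant reads and a single B6 read. Only 2 members had more than 20 variant reads.

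The share of MEF sites with variant reads only fell steadily as depth rose. It was 26.6% of 17057 sites at 5 reads (95% interval 25.9% to 27.2%), 15.3% of 3646 at 7 reads (14.2% to 16.5%) and 4.92% of 305 at 10 reads (2.78% to 7.98%). At 11 to 20 reads 12 of 361 sites had variant reads only, 3.32% (1.73% to 5.73%). In the other libraries the share also fell with depth, from 2 to 7 reads in MidK and from 2 to 8 reads in LowK. At 5 reads the share was 4.27% in MidK (3.50% to 5.15%) and 17.2% in LowK (15.8% to 18.8%), against the 26.6% in MEF. Of all sites with 5 or more reads, 2.74% in MidK, 13.6% in LowK and 21.9% in MEF had variant reads only. The lists also differed in this share at 2 reads, and the part of site listing in these values was not tested.

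**Figure D1:**
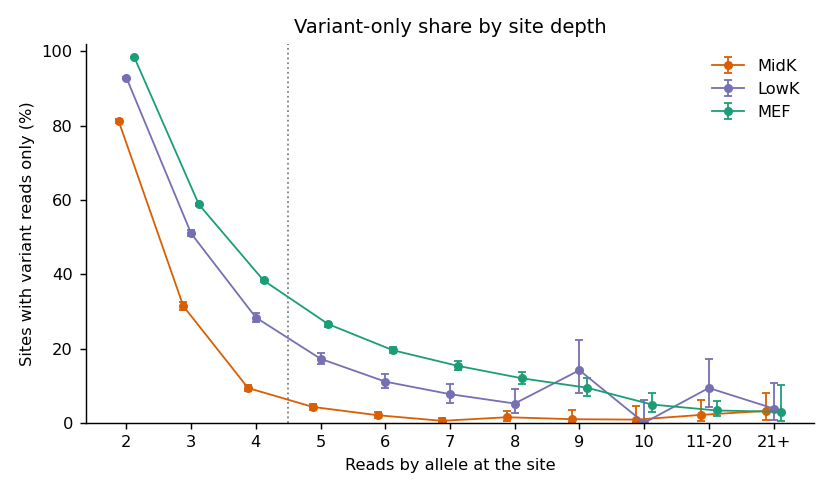
Percent of listed sites with variant reads only (y axis) against reads by allele at the site (x axis) in MidK, LowK and MEF, 1 library each, with exact 95% intervals; members lie to the right of the dotted line in MEF. The share in MEF falls to 4.92% at 10 reads, and MidK lies below LowK and MEF from 2 to 8 reads.

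Of the 6938 members, 424 (6.11%) were listed in MidK with the same variant base and 888 (12.8%) in LowK. For both-allele sites the listed shares were 6.02% in MidK and 11.01% in LowK. Only 3 members were listed with another variant base in MidK and 1 in LowK. Neither list held 5738 members (82.7%). Most listed members had a single day-20 read, 285 in MidK and 543 in LowK, and a listed single read is always a variant read.

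The question for the day-20 libraries, which the choice of members did not use, was whether members were again read as variant only. Among members with at least 2 MidK reads, 89 of 139 had variant reads only, 64.0% (55.5% to 72.0%). The same was found at 244 of 547 both-allele sites, 44.6% (40.4% to 48.9%). The members thus lay 19.4 percentage points higher, with intervals apart. In LowK, 236 of 345 members had variant reads only, 68.4% (63.2% to 73.3%), against 689 of 1088 both-allele sites, 63.3% (60.4% to 66.2%). That difference of 5.08 points had overlapping intervals and did not reach the 10 points set for a call. At sites with 8 or more MEF reads the gaps were wider, 43.2 points in MidK with intervals apart and 21.5 points in LowK with overlapping intervals, on 17 and 32 members. The MidK difference shrank to 11.4 points with overlapping intervals once both-allele sites were weighted to the MEF depths of the members. Whether the difference is larger in MidK than in LowK was not tested.

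Depth in the day-20 library moved both classes. At exactly 2 reads nearly every listed site was variant only, 58 of 58 members and 90.3% of both-allele sites in MidK, and 97.4% and 97.3% in LowK in the same order, so few listed sites had 1 read of each allele. At 3 reads the share was 62.5% of 40 members (45.8% to 77.3%), against 33.3% of 93 both-allele sites (23.9% to 43.9%) in MidK. In LowK it was 63.7% of 91 members (53.0% to 73.6%), against 59.4% of 256 both-allele sites (53.1% to 65.4%). With 5 or more reads, 24 of 27 members had B6 reads in MidK and 48 of 61 in LowK. The members with variant reads only then made up 11.1% in MidK (2.35% to 29.2%) and 21.3% in LowK (11.9% to 33.7%), against 9.84% (6.03% to 14.9%) and 14.7% (10.3% to 20.0%) of both-allele sites. At this depth most listed members had the B6 base.

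**Figure D2:**
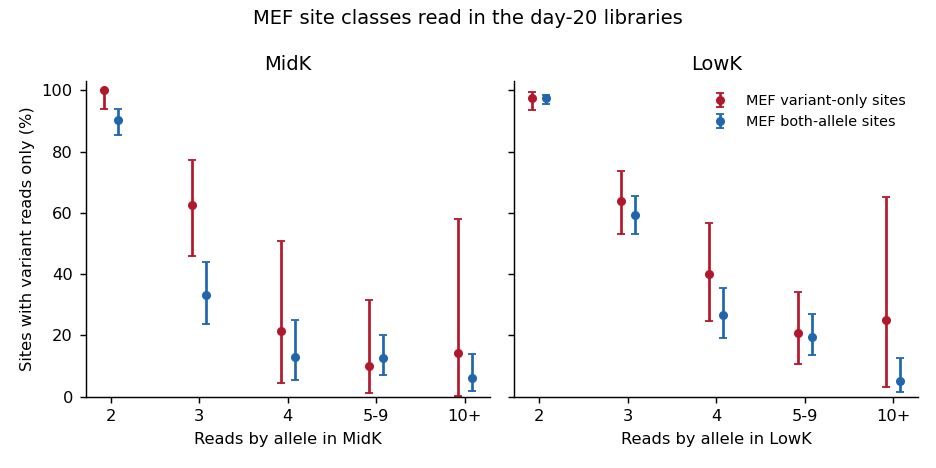
Percent of MEF variant-only sites (red) and MEF both-allele sites (blue) that had variant reads only in MidK (left) and in LowK (right), by reads by allele in that library, with exact 95% intervals. The intervals of the classes are apart at 3 reads in MidK, where members reach 62.5%, and overlap in LowK at every depth from 2 to 9 reads.

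Whether members with more MEF reads gave another variant-only share at day 20 could not be decided at these numbers. In LowK the share was 68.1% of 207 members with 5 MEF reads, 66.2% of 74 with 6, 81.2% of 32 with 7 and 62.5% of 32 with 8 or more (43.7% to 78.9%). In MidK it was 58.6% of 70, 75.7% of 37, 9 of 15 members and 64.7% of 17 (38.3% to 85.8%) in the same order. The intervals of these steps overlapped within each library. Among both-allele sites with 8 or more MEF reads the share was 21.5% in MidK and 41.0% in LowK.

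In all, 146 members had a B6 read in MidK, in LowK or in both. Over the listed members MidK gave 117 B6 and 832 variant reads, and LowK gave 190 B6 and 1592 variant reads. The members at chrX:75671991 and chrX:155228358 alone gave 92 and 65 of these variant reads in MidK, and 70 and 37 in LowK. Listed both-allele sites gave 2751 B6 and 5122 variant reads in MidK, and 1764 and 5719 in LowK. At 40 members both day-20 libraries had at least 2 reads. Of these, 14 had variant reads only in both, 13 had B6 reads in both, 11 had B6 reads in MidK alone and 2 in LowK alone.

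The deepest member, chrX:75671991, lay 53.5 kb from the long noncoding gene 4933407K13Rik. It had 92 variant reads in MidK, 70 in LowK and 73 in MEF, and 0 B6 reads in all 3 libraries. Its MEF depth of 94 exceeded its reads by allele, and its reliability score was 31.4, against a median of 113 for members. A depth above the reads by allele was found at 530 of the 6938 members. Over all members the excess made up 1.95% of the depth, a much smaller part than at this site. The next members by day-20 reads that stayed variant only had few reads. The site at chrX:140998779 in Atg4a, an autophagy protease gene, had 4 variant reads in MidK, 3 in LowK and 6 in MEF. In Hmgb3, the gene of an HMG-box chromatin protein, chrX:71556479 had 2, 4 and 8 in the same libraries. In Zfx, a zinc-finger transcription factor gene, chrX:94122966 had 4, 1 and 5. The member with 15 MEF reads at chrX:33928017, 26.7 kb from Btbd35f6, had 3 variant reads in MidK and 2 in LowK. The 3 remaining, in Gpkow, 0.011 kb from Gm44504 and 0.645 kb from C330007P06Rik, had 5 or 6 day-20 reads each, all variant.

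Other members carried many B6 reads at day 20. In Hprt, the purine salvage enzyme gene, chrX:52988345 had 9 B6 and 3 variant reads in MidK and 0 B6 and 6 variant reads in LowK, against 0 B6 and 5 variant reads in MEF. At chrX:13846937, 0.154 kb from the scaffold kinase gene Cask, there were 4 B6 and 2 variant reads in MidK and 4 of each in LowK, against 0 and 5 in MEF. At chrX:5393643, 73.3 kb from the nearest gene, Mycs, MidK had 4 reads of each allele and LowK had 5 B6 and 2 variant reads, against 0 and 8 in MEF. At chrX:155228358, 11.9 kb from the polyamine acetyltransferase gene Sat1, MidK had 4 B6 and 65 variant reads and LowK had 4 and 37, against 0 and 23 in MEF, where the depth was 35. The variant base stayed in the majority there in every library.

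The next question was whether members lay side by side along the chromosome. Over short distances they did. When the next MEF site with 5 or more reads lay under 50 bp away, it was a member in 79.7% of 1644 cases after a member (77.7% to 81.7%) and in 5.22% of 5841 cases after a both-allele site (4.67% to 5.82%). At 50 to 300 bp the shares were 42.1% of 928 (38.9% to 45.4%) and 20.4% of 2574 (18.9% to 22.0%). At 300 to 1000 bp they no longer differed beyond their intervals, at 21.1% of 584 after a member (17.8% to 24.6%) and 21.02% of 2098 after a both-allele site (19.3% to 22.8%). From 1 to 10 kb they were 22.4% (20.9% to 24.0%) and 21.5% (20.7% to 22.3%). Beyond 10 kb they were 21.2% (18.7% to 23.9%) and 20.0% (18.7% to 21.3%). At distances under 300 bp the next site was thus a member more often after a member than after a both-allele site. At the longer distances measured the intervals overlapped. These are values of the library that chose the members and are given as a description.

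**Figure D3:**
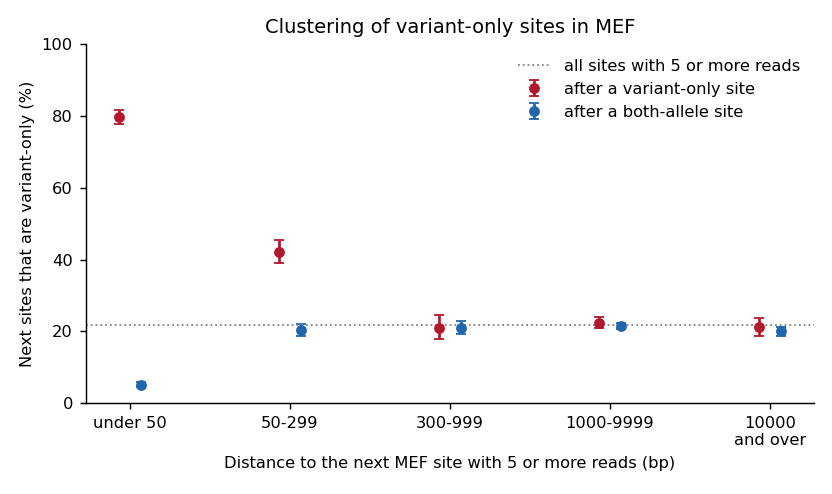
Percent of next MEF sites with 5 or more reads that are members (y axis), after a member (red) and after a both-allele site (blue), by distance in bp (x axis), with exact 95% intervals; the dotted line is the share over all such sites. The classes stand apart at 79.7% and 5.22% under 50 bp and meet near 21% from 300 bp on.

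The day-20 libraries gave a readout of this neighbourhood at positions that MEF did not list. In MidK, sites with at least 2 reads whose nearest MEF site was a member under 300 bp away were variant only in 50.7% of 582 cases (46.5% to 54.8%), against 49.9% of 2644 (48.0% to 51.8%) near a both-allele site. In LowK the shares were 68.8% of 1069 (65.9% to 71.5%) and 64.0% of 4635 (62.6% to 65.4%), with intervals apart but a gap of under 10 points. At 300 to 1000 bp they were 51.9% and 49.5% in MidK, and 68.4% and 69.9% in LowK. At 1 to 10 kb they were 48.7% (47.1% to 50.3%) and 46.1% (45.3% to 46.9%) in MidK, again with intervals apart, and 69.9% and 70.5% in LowK. No distance reached the 10 points set for a call.

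Members occurred in 159 of the 164 windows of 1 Mb with a MEF site of 5 or more reads, and 158 windows had at least 20 such sites. Over these 158, windows with more such sites tended to hold more members, with a Pearson correlation of 0.84. The median window held 43.5 members and the fullest held 91. The member share of those windows had a median of 22.3%, with quartiles of 19.2% and 24.7%, and lay between 15% and 30% in 142 of the 158. A window was called rich or poor in members when its share lay at least 10 points from the 21.9% of the chromosome with the interval to the same side. By this rule 1 window was rich (0.633% of those tested) and 5 were poor (3.16%). These window values come from the reads that chose the members.

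**Figure D4:**
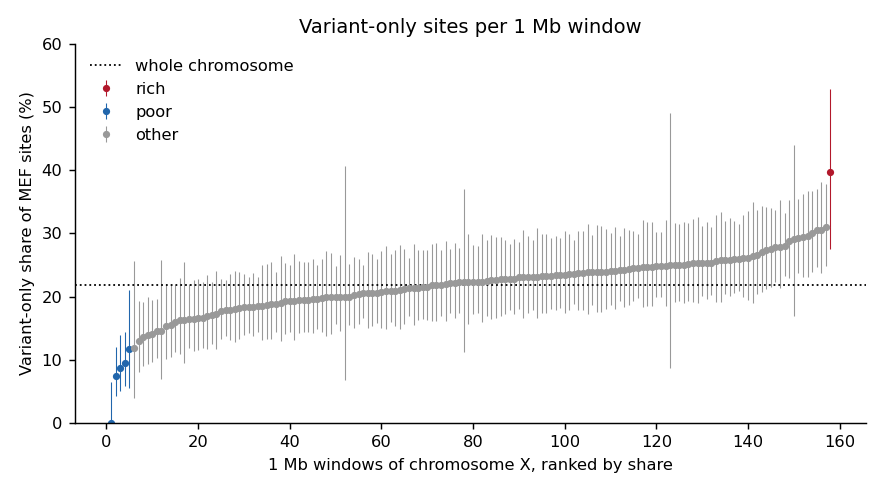
Member share of MEF sites with 5 or more reads in each of the 158 windows of 1 Mb with at least 20 such sites, ranked from low to high, with exact 95% intervals; the dotted line is the chromosome's 21.9%. The curve rises slowly between the 5 poor windows at the left, from 0% to 11.7%, and the 1 rich window at 39.7%.

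The rich window, chrX:123000001-124000000, held 25 members among 63 sites, 39.7% (27.6% to 52.8%), and 13 of the members remained when counted no closer than 300 bp. It contains the claudin-like multicopy genes Cldn34c1, Cldn34c2 and Cldn34c3, and which copies its reads came from was not tested. The day-20 libraries had variant reads only at 47 of its 94 sites in MidK and at 31 of its 56, 55.4%, in LowK. Over windows neither rich nor poor the values were 50.03% in MidK and 70.5% in LowK, so the window did not stand higher at day 20.

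Of the poor windows, the end of the chromosome, chrX:170000001-171000000, held 0 members among 55 sites. Its only gene in the table is Asmt, the melatonin synthesis gene, and its sites averaged 20.2 MEF reads. Variant reads only were found at 15.6% of 141 sites there in MidK and at 15.9% of 113 in LowK. The windows chrX:31000001-32000000 and chrX:32000001-33000000 hold copies of the Btbd35f family and had 15 members among 202 sites (7.43%) and 9 among 77 (11.7%). The first had 26.9% of 167 sites with variant reads only in MidK and 35.7% of 182 in LowK, and the second had 43.9% of 41 and 52.2% of 46. The other poor windows were chrX:54000001-55000000, with 15 of 172 (8.72%), and chrX:104000001-105000000, with 19 of 201 (9.45%) around genes such as Nexmif and Uprt. These had 46.2% and 44.3% in MidK and 69.4% each in LowK, with intervals that held the values of the windows neither rich nor poor.

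Summed over the windows, day-20 sites had variant reads only at 47 of 94 in the rich window (39.5% to 60.5%) and 35.3% in the poor windows (31.8% to 38.8%) in MidK, and at 55.4% (41.5% to 68.7%) and 54.9% (51.6% to 58.2%) in LowK. The MidK gap of 14.7 points was called. It was no longer called without the poor window chrX:31000001-32000000 (12.3 points) or without chrX:170000001-171000000 (10.13 points). The LowK gap of 0.446 points was not called, and with each poor window left out in turn it ran between -5.18 points (without chrX:170000001-171000000) and 11.2 points (without chrX:104000001-105000000), with overlapping intervals. Poor windows averaged 7.97 reads per site in MidK and 4.72 in LowK, against 3.23 and 2.77 in the windows neither rich nor poor, and the part of depth in the gap was not tested. Across the 158 windows the member share in MEF had Pearson correlations of 0.23 with the variant-only share in MidK and 0.24 in LowK, and Spearman correlations of 0.05 and 0.02. The windows share the libraries and differ in depth, and these are descriptions over 158 windows.

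**Figure D5:**
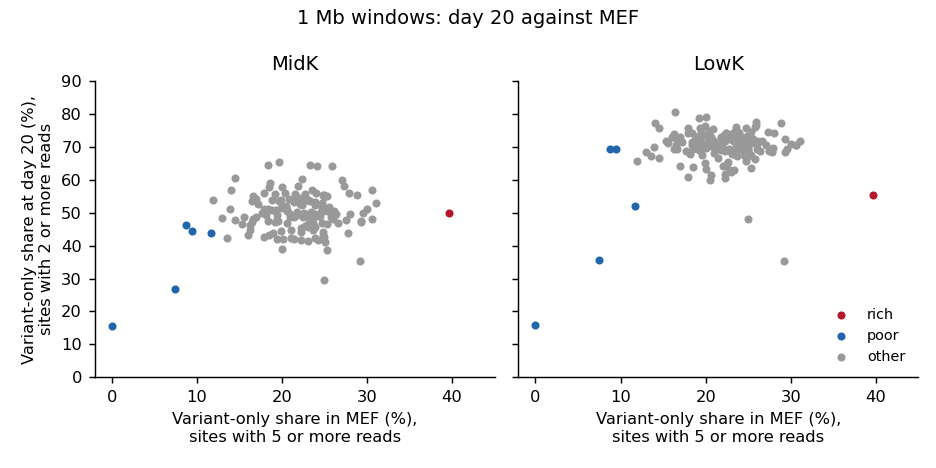
Variant-only share at day 20 of sites with 2 or more reads (y axis, MidK left and LowK right) against the member share in MEF (x axis) for the 158 windows of 1 Mb. Apart from poor windows at the lower left, the points form a level cloud, and the rich window at 39.7% lies at 47 of 94 sites in MidK and 55.4% in LowK.

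No block longer than 2 windows was found. The longest run of called neighbours was the pair of poor windows from chrX:31000001 to 33000000. With the interval alone and no minimum of 10 points, 11 windows were rich (6.96%) and 13 poor (8.23%), and the longest runs were again pairs, among them the rich pair from chrX:134000001 to 136000000 at 28.0% and 30.6%. That pair had 49.6% and 48.1% of sites with variant reads only in MidK and 74.1% and 70.6% in LowK.

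A finer view counted members in a row with no both-allele site of 5 or more reads between them, a measure added after the values were seen. There were 4278 such runs. Of these, 2660 held a single member, 1618 held at least 2, 829 of which spanned no more than 300 bp, and 90 held 5 or more. Counted no closer than 300 bp, 4 runs had 5 or more members. The run of these with most members, chrX:132947408-132977311, held 11 over 29.9 kb and no annotated gene. The longest of the 4, chrX:93002465-93040405 at Gm38657, held 6 over 37.9 kb. Over all runs the longest span was 226930 bp, in a run with fewer members counted in this way. Over the 4 runs, MEF sites with 2 to 4 reads had variant reads only at 81.8% of 143 (74.5% to 87.8%), against 74.7% elsewhere, in the library that chose the members. At day 20 the run of 11 had variant reads only at 1 of 6 sites in MidK and at 6 of 11 in LowK. The run at Gm38657 had them at 3 of 6 in MidK and 4 of 7 in LowK. Over the 4 runs together the share was 8 of 16 sites in MidK (24.7% to 75.3%), and 18 of 28 in LowK, 64.3% (44.1% to 81.4%), against 49.7% and 70.2% elsewhere.

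By gene, 554 of 1256 protein-coding and noncoding genes of chromosome X held a member. The genes with most members were long ones. Il1rapl2, a synaptic adhesion gene of 1278 kb (chrX:137570754-138849077), held 58 members among 230 sites with 5 or more reads, 25.2% (19.7% to 31.3%). Frmpd4 held 56 of 238, 23.5%, and Dmd, the dystrophin gene and the longest of these, 45 of 306, 14.7% (10.9% to 19.2%). Tenm1, a teneurin adhesion gene, held 40 of 140, 28.6%, and Il1rapl1, the paralogue of Il1rapl2, 39 of 233, 16.7%. Next came 3830403N18Rik with 37, Aff2 with 37, the formin gene Diaph2 with 30, the protocadherin gene Pcdh11x with 28 and the heparan sulfate sulfotransferase gene Hs6st2 with 25. Of the 40 members of Tenm1, 4 were listed in LowK and 1 in MidK, all with variant reads only. Of the 39 in Il1rapl1, 2 were listed in MidK, where 1 had B6 reads, and 6 in LowK with none.

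Among the 87 genes with at least 30 such sites the median member share was 22.2%, with quartiles of 17.1% and 25.5%. The highest shares were those of Sytl5, a synaptotagmin-like gene, with 18 of 41 sites, 43.9% (28.5% to 60.3%), the glycine receptor subunit gene Glra2 with 34.2%, Aff2 with 33.9%, the ubiquitin ligase adaptor gene Klhl13 with 32.4% and the phosphorylase kinase gene Phka1 with 31.6%. Of the 18 members in Sytl5, 1 was listed in LowK and 0 in MidK, so the share could not be followed to day 20. The lowest were those of Cldn34d with 1 of 36 sites (2.78%), the palmitoyltransferase gene Zdhhc15 with 1 of 30 (3.33%), Cfap47 with 5.26%, Wdr44 with 5.71% and Pola1, the gene of the catalytic subunit of DNA polymerase alpha, with 4 of 56, 7.14% (1.98% to 17.3%). Zdhhc15 lies in the poor window chrX:104000001-105000000. The intervals of Sytl5 and of Tenm1 and Il1rapl2 overlapped.

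At the X-inactivation centre, where noncoding RNAs choose and silence an X chromosome, 5 of 9 genes held a member. Their sites gave 15 members of 69, 21.7% (12.7% to 33.3%), counting a site for each gene that covers it. Xist, the RNA that coats the inactive X chromosome, had 0 members among 5 sites, and Tsix, its antisense partner, 2 among 25. Chic1 had 2 of 6, Cdx4 0 of 3, and Nap1l2 and Zcchc13 no site with 5 reads. Ftx, a noncoding gene next to Jpx, had 4 of 15, and Jpx, an activator of Xist, 2 of 6. Rlim, which encodes a ubiquitin ligase that promotes Xist expression, had 5 of 9, and 1 of its members had 1 B6 and 4 variant reads in LowK. Among 12 genes known to escape X inactivation, 9 held a member, with 55 of 293 sites, 18.8% (14.5% to 23.7%). Mid1, a ubiquitin ligase gene, held 21 of 92 and the noncoding 4933407K13Rik 9 of 49. Of the 9 in 4933407K13Rik, 4 were listed in MidK, 1 of them with B6 reads, and 8 in LowK, 4 of them with B6 reads. The demethylase genes Kdm6a and Kdm5c had 4 of 20 and 2 of 12, and Firre, a noncoding architecture gene, 7 of 35. Shroom4 had 5 of 38, Eif2s3x 3 of 10, Pbdc1 3 of 13 and Utp14a 1 of 5, while Ddx3x had 0 of 13, Syap1 0 of 6 and Bgn no such site. Both lists had intervals that held the 21.9% of the chromosome.

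Gene bodies held 34.4% of members and 34.5% of both-allele sites. The median distance to a transcript start was 59.7 kb for members and 62.2 kb for both-allele sites. Transitions made up 63.0% of members (61.9% to 64.2%) and 60.7% of both-allele sites (60.1% to 61.3%). Changes between T and C, or A and G on the other strand, with T or A as the B6 base, were 31.0% and 28.0%, and C-to-A or G-to-T changes 9.96% and 11.9%. These differences were outside the intervals but small. The median reliability score was 113 for members and 46.1 for both-allele sites. The sources used here do not define that score.

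The member share in promoter windows is a value of the library that chose the members and is given as a description, added after the values were seen. Members were 53 of the 147 sites with 5 or more reads there, 36.1% (28.3% to 44.4%), against 21.9% over the chromosome, and 37 of 95 when no sites closer than 300 bp were counted, 38.9% (29.1% to 49.5%), against 21.2%. Within 1 kb of a start the share was 23.8% of 752 sites (20.8% to 27.0%), and 26.1% of 490 (22.3% to 30.3%) when thinned in the same way. Of the promoter members 24.5% lay at a CpG, as did 23.4% of the both-allele sites there. Of the 53 promoter members, 13 were listed in MidK (24.5%), 4 of them with B6 reads, and 31 in LowK (58.5%), 9 of them with B6 reads, beside 6.11% and 12.8% of all members. These counts are by site, so the close pairs at Klhl15 and Fgd1 enter more than once. The both-allele sites of the promoter windows were not followed to day 20. Whether such listing is particular to promoter members was therefore not tested. Among the listed promoter members was the site at chrX:68678533, just before the start of Fmr1, the gene of an RNA-binding protein of synapses. It had 2 B6 and 4 variant reads in MidK and 2 B6 and 6 variant reads in LowK, against 5 variant reads in MEF. At chrX:7841868, upstream of a start of the deubiquitinase gene Otud5, LowK had 4 variant reads and no B6 read, against 7 variant reads in MEF.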

How the data were processed

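Chromatin bound by LSD1 was sequenced from MidK, LowK and MEF, 1 library each, grouped by sample titles. The submitters' processing notes name BWA and the build mm10, and the series' design text names bcftools mpileup; tool versions, read filters and any duplicate removal were not stated. Counts of reads (depth, B6, variant) at positions of chromosome X were used as deposited. The reliability score of each deposited file entered 1 alternative, and that of MEF the descriptions of sites; in the MidK file its column has another prefix than the read columns, so its source is uncertain. Entries that were not single bases, or whose position was listed again, were left out (5.56% in MidK, 6.13% in LowK, 6.98% in MEF). The day-20 files were joined on position and variant base, in Python 3.11.15 with pandas 2.3.3 and SciPy 1.17.1, and tested on simulated data. Genes came from RefSeq GRCm38.p6, which gives no exons here. Members and lists were chosen with earlier results of these data known. Named genes were the 10 with most members, the 5 highest and 5 lowest shares among genes with at least 30 sites, and 2 lists (X-inactivation centre, escape); 1 gene of the first list is not reported here. Named sites were those with most day-20 reads that stayed variant only and those with most day-20 B6 reads, 1 per window. A difference was called at 10 points with intervals apart.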

Additional observations from a re-analysis of the deposited data

Results flagged for a closer look

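At the members, the MEF depth exceeded the B6 and variant reads by 765 of 39209 reads, 1.95% (1.82% to 2.09%), at 530 sites. These reads were counted for neither allele and enter no comparison here. At both-allele sites the figure was 3709 of 156076 reads, 2.38% (2.30% to 2.45%). The files do not say whether such reads carried another base or were left out for their quality.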

How the results depend on the processing

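Of 84 alternative values for 8 results, 54 were judged unchanged. For these, shares stayed within the main interval, differences stayed on the same side of their threshold, and window counts stayed within a set ratio of the main count. The share of members with variant reads only followed the minimum day-20 depth: in MidK, 64.0% with 2 or more reads became 88.2% with at least 1, 38.3% with at least 3 and 11.1% with at least 5, and in LowK 68.4% became 87.7%, 45.3% and 21.3%. A minimum of 10 MEF reads gave 50% in MidK (8 members), a minimum of 8 gave 62.5% in LowK, and a reliability of at least 20 gave 73.4% in LowK. The MidK difference of 19.4 points from both-allele sites was no longer called with at least 1 read (8.52), with at least 5 reads (1.27), with 10 MEF reads (36.4, too few members) and with weighting to the same MEF depth (11.4). It kept its call with 1 site per 300 bp and with weighting to the same MidK depth (13.3). It was 43.2 points, and called, at 8 MEF reads. The LowK difference of 5.08 points was not called under any of 14 alternatives, which ran between 0.318 and 40.7 points, with 21.5 at 8 MEF reads and 40.7 at 10 (11 members). The MidK gap of 14.7 points between rich and poor windows lost its call without the poor window starting at 31 Mb (12.3) or at 170 Mb (10.13), and kept it without each of the other 3 poor windows. The LowK gap of 0.446 points was called in none of these and ran between -5.18 and 11.2 points. Windows called rich numbered 1 and poor 5. They numbered 10 and 10 with 0.5 Mb windows, 0 and 2 with 2 Mb windows, 3 and 2 with windows shifted by 0.5 Mb, 2 and 0 at 8 MEF reads (50 windows tested), 0 and 0 at 10, 11 and 13 with the interval alone, 0 and 1 at 20 points, and 0 rich at 4 MEF reads. The cause was not tested where the windows moved. The minimum of 3 reads, the weighting to day-20 depth and the windows left out were chosen after seeing the data. No paired analysis was possible because each group holds 1 library.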
